A study of Mus musculus with 70 samples.

Results

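Gene expression was compared between the parental RENCA cells and the cell lines recovered after 6 rounds of growth as a kidney tumour. RENCA is a mouse renal adenocarcinoma line of the BALB/c strain, and the cells carried a lentiviral GFP so that they could be followed. The P0 group is the parental line before any implantation, with 2 samples. The KPT P6 group (KPT for kidney primary tumour) has 5 samples. They were recovered from kidney tumours at the sixth passage, after 100000 cells had been placed under the capsule of the left kidney of 6-week-old female BALB/c mice, an immunocompetent host of the strain the line came from. By the methods of the study, the tumours were digested between passages and the cells cultured until GFP-negative cells were no longer seen. The samples would then be cells back in culture, each with the host cells, if any, that outlasted the culture. The labels, however, name the KPT P6 samples as primary tumour, so which material was put on the arrays is not settled. The 7 samples were chosen by their labels alone, from 70 arrays in the series. The RNA of both P0 samples, and of replicates 1, 2 and 4 of KPT P6, was run again on 5 repeat arrays, and these were read as a second measurement of the same RNA, never as extra replicates. The labels do not say whether the samples of a group are separate cultures or mice. The p-values from P0 to KPT P6 therefore measure the spread between samples of a group, whatever these are. That spread was pooled over P0 and P2 to P6 of the kidney route (19 arrays), not taken from the 7 samples alone. All 5 KPT P6 lines descend from the same parental line by the same series of passages.

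Serial growth in an animal followed by recovery is used to enrich a cancer line for cells that thrive in the host. Renal tubule cells are epithelial: they are held together by cadherins and tight junctions, and they rest on a basement membrane. Carcinoma cells can gain contractile, matrix and protease genes that are otherwise typical of mesenchymal cells, and they can also change the cytokines they release toward the macrophages and lymphocytes around them.

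Levels are log2 of the array signal relative to the 75th percentile of the probes seen on every array, so 0 is a bright gene, 1 unit is a doubling of signal, and values near -8 are at the array background. Over the 7 first arrays, 27.9% to 35% of probes were well above background. The P0 arrays were dimmer (75th percentile of all probes 195 and 269 intensity units) than the KPT P6 arrays (309 to 535), whereas on the repeat arrays both groups overlapped (407 and 757 in P0, 554 to 664 in KPT P6). The difference between long mRNAs and ribosomal protein mRNAs, a sign of RNA quality, was -7.04 and -6.84 in P0 and -7.45 to -6.16 in KPT P6, so the groups overlapped. Where a gene was not well above background on any array of the dimmer group, its change is given as a lower bound, "at least N-fold". A change was called where limma's p, adjusted by Benjamini and Hochberg over all probes tested, was at most 0.01.

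Promoters (250 bases before to 50 after the start site, RefSeq, build GRCm38.p6) are shown because the genes behind them changed together or in opposite directions. The first pair belongs to Xlr4a and Xlr4b, X-linked genes of a family best known from lymphocytes and the germline, both of which rose. Their start sites lie 132 kb apart. Over 292 aligned bases 288 are identical (98.6%), and capitals mark the bases with no identical partner in the other promoter.
Xlr4a, chrX:73082458-73082757, minus strand: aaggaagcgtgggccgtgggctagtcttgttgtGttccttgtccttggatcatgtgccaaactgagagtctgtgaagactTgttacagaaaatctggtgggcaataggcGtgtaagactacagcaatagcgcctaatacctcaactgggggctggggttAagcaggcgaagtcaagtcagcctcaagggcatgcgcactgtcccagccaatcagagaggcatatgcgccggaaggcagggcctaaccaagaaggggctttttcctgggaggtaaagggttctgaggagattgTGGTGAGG
Xlr4b, chrX:73214083-73214382, plus strand: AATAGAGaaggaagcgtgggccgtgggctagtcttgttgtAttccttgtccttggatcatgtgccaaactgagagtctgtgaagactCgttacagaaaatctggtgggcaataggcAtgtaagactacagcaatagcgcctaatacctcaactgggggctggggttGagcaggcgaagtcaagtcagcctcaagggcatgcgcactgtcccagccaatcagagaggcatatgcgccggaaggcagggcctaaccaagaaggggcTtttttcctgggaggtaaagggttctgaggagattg
The next 3 belong to Abcb1a, Abcb1b and Abcb4, which lie in a row within 327 kb on chromosome 5 and all rose. Abcb1a and Abcb1b encode the mouse P-glycoproteins, which pump drugs out of cells, and Abcb4 encodes a phospholipid transporter of the same family. Capitals mark the 50 bases from the start site on.
Abcb1a, chr5:8566841-8567140, plus strand: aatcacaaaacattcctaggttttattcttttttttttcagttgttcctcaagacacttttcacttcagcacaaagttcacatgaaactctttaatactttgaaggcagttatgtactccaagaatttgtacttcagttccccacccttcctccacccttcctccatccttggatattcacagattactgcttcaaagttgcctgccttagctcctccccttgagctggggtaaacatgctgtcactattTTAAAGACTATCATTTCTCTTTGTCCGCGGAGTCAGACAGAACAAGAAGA
Abcb1b, chr5:8797897-8798196, plus strand: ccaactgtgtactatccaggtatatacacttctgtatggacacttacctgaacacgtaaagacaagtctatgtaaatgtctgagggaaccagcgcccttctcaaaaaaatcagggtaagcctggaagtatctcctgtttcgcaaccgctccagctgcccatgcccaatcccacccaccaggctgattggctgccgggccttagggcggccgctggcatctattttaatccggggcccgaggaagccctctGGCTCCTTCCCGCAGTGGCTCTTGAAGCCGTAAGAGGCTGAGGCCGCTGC
Abcb4, chr5:8893471-8893770, plus strand: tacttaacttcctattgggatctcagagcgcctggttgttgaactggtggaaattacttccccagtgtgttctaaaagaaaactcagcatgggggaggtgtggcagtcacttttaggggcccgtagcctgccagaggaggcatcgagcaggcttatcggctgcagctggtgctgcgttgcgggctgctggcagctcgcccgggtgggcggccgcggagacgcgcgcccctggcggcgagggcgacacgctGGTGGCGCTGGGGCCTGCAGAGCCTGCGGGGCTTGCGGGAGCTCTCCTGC
The last pair belongs to Car9 and Ddit4, both known as targets of hypoxia-inducible factors, of which Car9 rose and Ddit4 fell. Capitals mark ACGTG on either strand (CACGT on the strand shown), the core of the hypoxia response element, present once in each and in 19.6% of all 32851 promoter windows.
Car9, chr4:43506776-43507075, plus strand: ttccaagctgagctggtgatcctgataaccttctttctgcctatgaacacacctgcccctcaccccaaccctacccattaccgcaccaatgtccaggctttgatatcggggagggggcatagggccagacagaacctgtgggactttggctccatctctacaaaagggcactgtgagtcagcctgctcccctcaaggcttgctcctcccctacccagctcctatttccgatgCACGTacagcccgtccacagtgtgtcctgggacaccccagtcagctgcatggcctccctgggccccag
Ddit4, chr10:59951721-59952020, minus strand: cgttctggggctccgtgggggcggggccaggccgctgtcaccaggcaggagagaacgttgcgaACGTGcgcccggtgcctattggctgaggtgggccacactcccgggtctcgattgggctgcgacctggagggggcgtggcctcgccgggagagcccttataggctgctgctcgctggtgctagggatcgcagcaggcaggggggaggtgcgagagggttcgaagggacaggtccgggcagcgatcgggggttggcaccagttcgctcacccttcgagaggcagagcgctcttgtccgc

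The comparison of P0 with KPT P6 asks which transcripts differ once the line has been carried through the kidney 6 times. Of 11807 genes tested, each by its brightest probe, 553 were called (4.68%). Of these, 486 were higher (4.12% of genes tested) and 67 were lower (0.567%) in KPT P6. Counted by probe, 813 of 20978 were called (3.88%), 714 higher and 99 lower, and 401 had a change of 2 or more on the log2 scale, 379 of them higher. The median change over all probes tested was -0.01. The samples of both groups did not overlap for 811 of the 811 called probes with a value in every sample, and for 31.5% of all probes tested. Percentages given for gene lists below are the share of tested members called, to be set against that 4.68%. Members that passed the filter on dim probes only through KPT P6, the group where they are high, raise both the count and the median of their list. Counts of list genes on the repeat arrays are to be set against the 8.31% of all probes called there. Those without a P0 sample come from fits that called fewer probes in all, so a lower count is no trait of the list.

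Most of the rises started from the array background. Of the 714 probes called higher, 451 (63.2%) were not well above background on either P0 array, and 207 were well above it on both. Of those 451 probes, 282 stayed below background on both P0 repeat arrays, 104 passed on 1 and 65 on both. Of the 448 that could be tested on the repeat arrays, 412 were called higher there as well. Over all 813 called probes, 810 were tested on the repeat arrays, 809 moved in the same direction and 721 passed the threshold. The repeat arrays called 1746 of 21013 probes (8.31%), 1359 higher and 387 lower, in a fit that also held the K-LM P6 arrays of that slide.

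The number of calls depended on the 2 P0 samples. Without P0 replicate 1, 383 probes were called, and without P0 replicate 2, 437. Every one of the 79 called genes named by the rule kept its direction in both cases, but 20 missed the threshold either way (4931408D14Rik, Acacb, Atf5, Cdh16, Chac1, Cldn1, Cnn2, Col6a1, Cxcl3, Dnajc12, E2f2, Grhl2, Inhba, Irx3, Krt23, Mmp2, Nr1h3, Pfkfb4, Taf7l and Unc93a). Another 15 missed it without replicate 1 alone (Abca1, Abcb1b, Ccl8, Ccnd1, Cdkn2c, Ddit3, Dmrtc1c2, Dusp6, Fos, Fosb, Hbegf, Plau, Plaur, Selenop and Vcl) and 3 without replicate 2 alone (Acta2, Col7a1 and Slc7a11). The other 41, Anxa8, Stbd1, Lcp1 and Afp among them, passed in both. Of 13 other called list members named below, Cd74, Pdpn and Rac2 missed it either way, Csf1 and Padi3 without replicate 1, and Arhgef40 and Il18 without replicate 2, all with their direction kept. One slide held a sample of each group, P0 replicate 1 and KPT P6 replicate 5, and between these 2 arrays all 813 called probes differed in the direction of the fit, of which both arrays are part. For the 811 called probes whose groups did not overlap, that direction was fixed in advance, so it is no check on differences between slides. It was fixed in the same way in the fits without a P0 sample, so the directions kept there are no check either.

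The largest rise was in Anxa8, an annexin, one of the calcium-dependent membrane-binding proteins. Its levels were -4.89 and -6.78 in P0 and 2.67, 3.01, 2.85, 2.46 and 2.30 in KPT P6, given here and below in order of replicate. Every KPT P6 sample lay far above both P0 samples, of which 1 passed background on the first arrays and both on the repeat arrays. The change was 8.49 ± 0.72 (SE, adjusted p = 5.94e-07), and on the repeat arrays 7.91. It was the only member of the 21 tested annexins and S100 proteins to be called (4.76%, near the 4.68% of all genes), and the median of that list was 0.16.

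Stbd1, which anchors glycogen to membranes, stood at -7.90 and -7.79 in P0 and -0.85, -0.77, -0.44, -0.61 and -0.68 in KPT P6. The 5 lines lay close together, and the gene was at least 38.9-fold higher (adjusted p = 5.57e-12). Lcp1, an actin-bundling protein known from leukocytes, stood at -7.19 and -7.85 in P0 and -0.67, -0.69, -0.45, -0.02 and -0.45 in KPT P6, at least 45.2-fold higher (adjusted p = 2.20e-10). Afp, the fetal serum protein of liver and yolk sac, stood at -6.09 and -6.36 in P0 and 0.62, 0.42, 0.38, 0.42 and 0.58 in KPT P6, at least 83.5-fold higher (adjusted p = 2.01e-09). Both P0 repeat arrays measured Afp above background, at -5.82 and -5.89, and there the change was 6.41. Il34, a ligand of the macrophage receptor Csf1r, started from a measurable level in P0 and rose 19-fold, from -4.50 and -4.52 to -0.39, -0.09, -0.22, -0.30 and -0.31, a change of 4.25 ± 0.37 (SE, adjusted p = 6.79e-07).

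The other large rises were Lurap1l (at least 18.6-fold), 4930550L24Rik (at least 16.1-fold), the lens chaperone Cryaa (at least 15.2-fold), the phosphatase Ppef1 (at least 15.7-fold) and the retinal reductase Dhrs3, a retinoid enzyme, at -5.77 and -7.82 in P0 and -1.02, -0.85, -0.84, -0.60 and -0.35 in KPT P6 with a change of 6.06 ± 0.47 (SE, adjusted p = 2.06e-07). For Lurap1l, 4930550L24Rik, Cryaa and Ppef1 no P0 array of either set passed background, and the lower bound was higher on the brighter repeat arrays, at least 53.2-fold, 41.9-fold, 37.2-fold and 35.6-fold. The P0 samples differed in Dhrs3, and only replicate 1 passed background on either set.

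**Figure D1:**
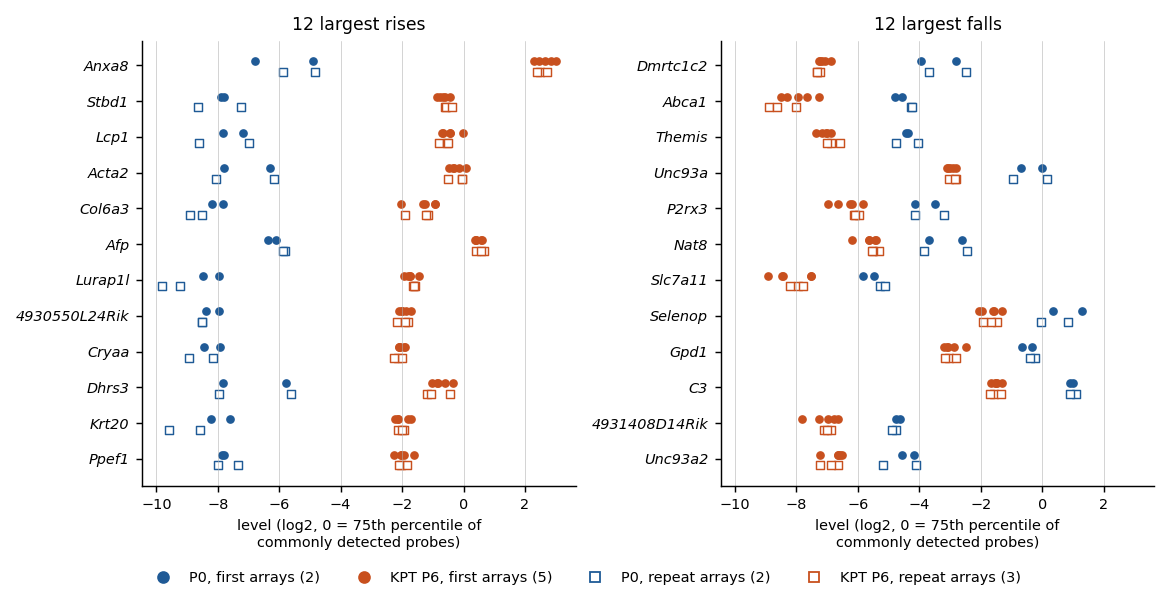
Levels (log2, 0 = 75th percentile of commonly detected probes) of the 12 genes with the largest rises and the 12 with the largest falls from P0 (blue) to KPT P6 (orange), 1 point per array, filled for the first arrays and open for the repeat arrays of the same RNA. In each of the 24 genes the P0 and KPT P6 points lie apart on both array sets, and Anxa8 spans the widest gap, with a fitted change of 8.49.

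Contractile and matrix genes of mesenchymal type were among the rises. Acta2, smooth muscle actin, stood at -6.29 and -7.81 in P0 and -0.48, -0.16, -0.33, -0.30 and 0.09 in KPT P6, at least 52.7-fold higher (adjusted p = 0.000956). Of 29 contractile genes tested, 3 rose (10.3%, beside 4.68% of all genes), none fell and the list median was 0.66, against 0.03 over all genes tested. Of the 29, 7 passed the filter only through KPT P6. The other 2 were Vcl, which links actin to adhesion sites, with a change of 1.51 ± 0.27 (SE, adjusted p = 0.00183), and the calponin Cnn2, with 1.32 ± 0.30 (SE, adjusted p = 0.00967). The calls of Acta2, Vcl and Cnn2 each depended on the P0 samples, as given above. On the repeat arrays 8 of 29 contractile genes tested were called higher and 0 lower, beside 8.31% of all probes called there.

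Of 20 collagens tested, 3 rose (15%) and none fell, with a list median of 1.25, and 9 of the 20 passed the filter only through KPT P6. Col6a3 stood at -8.20 and -7.84 in P0 and -2.05, -1.33, -0.92, -0.94 and -1.26 in KPT P6, at least 25.2-fold higher (adjusted p = 8.01e-08), with replicate 1 the lowest on both array sets. Its partner chain Col6a1 was at least 6.01-fold higher (adjusted p = 0.00521). Col7a1, the anchoring fibril collagen, moved by 1.77 ± 0.29 (SE, adjusted p = 0.000614). For these genes, leaving out P0 replicate 1 gave 2 higher and 0 lower, leaving out P0 replicate 2 gave 1 and 0, and the repeat arrays 7 and 0. Among 24 genes that modify or crosslink collagen none was called in limma (7 at an unadjusted p under 0.05, and 1 called on the repeat arrays), and the smallest p was that of the prolyl hydroxylase P4ha1, at -4.00 and -3.79 in P0 and -3.28, -3.03, -3.18, -3.36 and -3.46 in KPT P6, a change of 0.64 ± 0.17 (SE, adjusted p = 0.0288). Of the 21 mesenchymal genes, 1 rose (4.76%, near the 4.68% of all genes), and the list median was 0.16. It was the integrin chain Itgb3 (at least 5.4-fold, adjusted p = 4.31e-06). Vim, the intermediate filament protein of mesenchymal cells, was already bright in P0 and moved by 0.08 ± 0.19 (SE, adjusted p = 0.881), from 2.74 and 2.93 to 2.89, 2.96, 2.86, 2.95 and 2.93.

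Because the labels name the P6 samples as primary tumour and the homogeniser used was one for tissue, markers of host cells were read beside these genes. Of 14 fibroblast markers, 2 were well above background on both P0 arrays (Pdpn and Ogn) and 7 on all 5 KPT P6 arrays (Pdgfrb, Dcn, Col1a1, Col1a2, Col3a1, Pdpn and Mfap5). Their summed level was 1.09 to 1.5 in P0 and 2.56 to 2.97 in KPT P6. That sum adds signals before the log, and most of it was Pdpn, bright in both groups. Pdpn alone stood at 1.00 and 1.44 in P0 and 2.22 to 2.67 in KPT P6. Of the 12 tested, 3 rose (Dcn, Pdgfrb and Pdpn, 25%), none fell and the median was 2.32, with 9 of the 12 passing the filter only through KPT P6. Here leaving out either P0 sample gave 2 higher and 0 lower, and the repeat arrays 7 and 1. Dcn, a matrix proteoglycan of fibroblasts, stood at -7.17 and -7.49 in P0 and -2.17, -2.04, -2.14, -1.83 and -1.97 in KPT P6, at least 15.2-fold higher (adjusted p = 3.97e-07). Pdgfrb, the receptor of fibroblasts and pericytes, stood at -8.35 and -7.86 in P0 and -4.21, -3.72, -3.88, -2.97 and -3.31 in KPT P6, at least 5.05-fold higher (adjusted p = 4.63e-06). Col1a2 was at -6.49 and -6.56 in P0 and -2.64, -0.99, -1.15, -0.65 and -0.82 in KPT P6, with replicate 1 the lowest, and did not pass the test (adjusted p = 0.0502). The part of host fibroblasts in the rises of Acta2, the collagens and Pdgfrb was not tested, and more cells of a type and more RNA per cell cannot be told apart in these bulk samples.

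**Figure D2:**
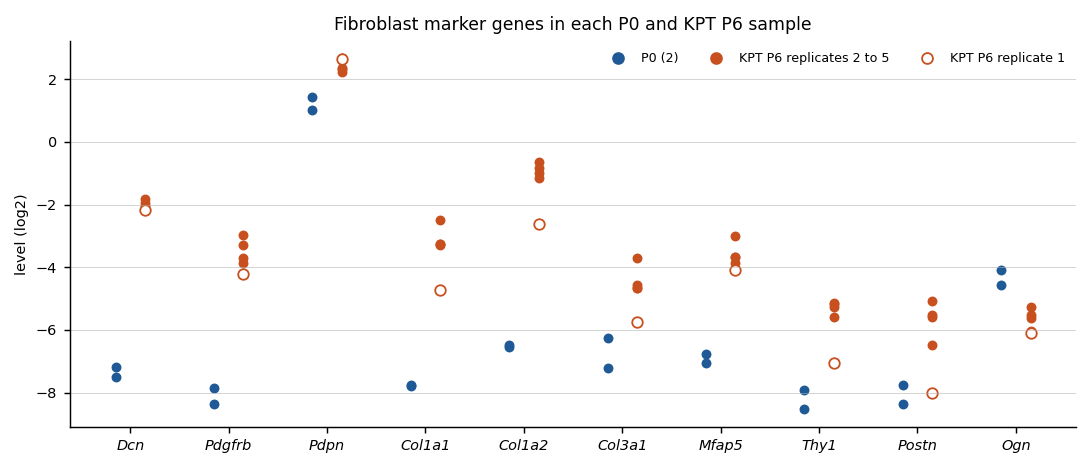
Level (log2) of 10 fibroblast marker genes in each P0 sample (blue) and each KPT P6 sample (orange), 1 point per sample of the first arrays, with KPT P6 replicate 1 open. Dcn and Pdgfrb are higher in all 5 KPT P6 samples than in P0, and Ogn alone is lower in KPT P6 than in P0. Among the KPT P6 samples every gene shown but Pdpn is lowest in replicate 1, by the widest gaps in Col1a1, Col1a2, Col3a1, Thy1 and Postn.

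Of 28 leukocyte markers on the array, 8 passed background on both P0 arrays and 10 on all 5 KPT P6 arrays, and of 22 tested only Cd74, the invariant chain of class II antigen presentation, rose, from -2.09 and -2.58 to -0.96, -0.66, -0.90, -0.77 and -1.06 (adjusted p = 0.00477), a call that was lost without either P0 sample. That 1 call was 4.55% of the 22 tested, near the 4.68% of all genes. On the repeat arrays 5 of 14 leukocyte markers tested were called higher and 0 lower, beside 8.31% of all probes called there. They were Ptprc, Cd74, H2-Ab1, Fcer1g and Tyrobp. On the first arrays Fcer1g passed background on all 5 KPT P6 arrays and Tyrobp on 4, and neither on a P0 array. Neither was called there (adjusted p = 0.522 and 0.540). The summed level of the list was 1.59 to 1.84 in P0 and 2.13 to 2.58 in KPT P6. Ptprc, the pan-leukocyte CD45 gene, was at -8.44 and -7.97 in P0 and -6.58, -6.90, -6.60, -6.61 and -6.91 in KPT P6 and passed background on 2 of the 5 KPT P6 arrays. The part of host leukocytes in the rises of Lcp1 and of Was and Rac2, given below, was not tested. The endothelial genes Kdr, Esam and Plvap were well above background in both groups, the other 8 of 11 endothelial markers in neither, and none of 5 endothelial markers tested and not the 1 erythroid marker tested was called in limma (1 and 0 at an unadjusted p under 0.05, and 1 and 0 called on the repeat arrays). Of 20 kidney tubule and podocyte markers, Aqp3 passed in both P0 samples, Cubn, Aqp1, Ggt1 and Anpep passed in all KPT P6 samples, and Ggt1, the gamma-glutamyl transferase of the proximal tubule, rose from -7.64 and -7.92 to -5.13, -4.45, -4.81, -5.09 and -4.75 (at least 2.16-fold, adjusted p = 4.41e-07). It was the 1 called of 7 tested (14.3%, beside 4.68% of all genes), and 6 of the 7 passed the filter only through KPT P6. On the repeat arrays 6 of these markers were tested. Cubn, Aqp1, Ggt1 and Anpep were called higher there and Aqp3 lower. Umod, Slc12a1, Slc34a1 and Nphs1, which define mature nephron segments, were below background in every sample of both groups.

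Of 24 epithelial junction and epithelial programme genes tested, 4 rose (16.7%, beside 4.68% of all genes) and none fell, with a median of 0.23. Of the 24, 9 passed the filter only through KPT P6. Esrp1, a splicing factor of epithelial cells, stood at -6.99 and -7.43 in P0 and -2.89, -3.15, -3.14, -3.16 and -3.14 in KPT P6, at least 7.25-fold higher (adjusted p = 1.60e-08). A second, dimmer probe of Esrp1 moved by 1.00 and was not called. Cdh16, the kidney-specific cadherin, went from below background in P0 to -4.67, -4.36, -4.81, -4.15 and -4.64, at least 2.69-fold higher (adjusted p = 0.00161). The tight junction gene Cldn1 and the epithelial transcription factor Grhl2 were at least 1.39-fold and at least 1.28-fold higher (adjusted p = 0.00227 and 0.000443). With a floor on dim signals the sign of Cldn1 and of Grhl2 turned. On the repeat arrays the bound of Cldn1 was at least 4.37-fold, whereas Grhl2 was not called there (change 2.18, adjusted p = 0.0302). Cdh1, E-cadherin, was below background in all 7 samples, at -8.35 and -7.84 in P0 and -8.35 to -7.36 in KPT P6. In this list, leaving out either P0 sample gave 1 higher and 0 lower, and the repeat arrays 7 and 0.

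Keratins, the intermediate filaments of epithelia, had 4 of 8 tested members higher (50%) and none lower, with a list median of 1.86. Of the 8, 4 passed the filter only through KPT P6. Of its genes, leaving out either P0 sample gave 3 higher and 0 lower, and the repeat arrays 5 and 0. Krt20, known from gut and urothelium, stood at -8.22 and -7.59 in P0 and -2.12, -1.70, -1.80, -2.22 and -2.15 in KPT P6, at least 15.5-fold higher (adjusted p = 3.70e-08). Krt19 was at least 5.2-fold higher (adjusted p = 1.60e-08), and replicate 1 was its lowest sample on both array sets, at -4.01 and -4.26. Krt17 was measurable throughout, at -1.67 and -2.90 in P0 and 0.01, 0.44, 0.30, -0.27 and 0.27 in KPT P6, a change of 2.44 ± 0.32 (SE, adjusted p = 6.63e-05). Krt23 passed background in 3 of the 5 KPT P6 samples and in no P0 sample (adjusted p = 0.00434), with no lower bound above 1-fold on the first arrays, and its sign turned with a floor on dim signals. Among kidney lineage transcription factors 1 of 15 tested was called (6.67%, near the 4.68% of all genes), Irx3, with a change of 0.85 ± 0.19 (SE, adjusted p = 0.00967), which did not pass on the repeat arrays (adjusted p = 0.0727) or without either P0 sample. Pax8, which marks renal epithelium, stood at -4.20 and -3.79 in P0 and -3.07, -2.23, -2.74, -2.39 and -2.49 in KPT P6 and was not called on the first arrays (adjusted p = 0.0425), but was called higher on the repeat arrays, with a change of 0.98 (adjusted p = 0.00387), where Tfap2a and Maf of the same list were called lower. Pax2 was below background in all 7 samples.

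Regulators of actin and small GTPases had 8 of 26 tested genes higher and none lower, 30.8% against 4.68% of all genes, with a median of 0.70. Of the 26, 12 passed the filter on dim probes only through KPT P6, beside 1405 of all 11807 genes. Besides Lcp1 they were Arap3 (at least 3.76-fold), Arhgap33 (at least 2.92-fold), Arhgap30 (at least 1.91-fold), Arhgef40, Was, Avil and Rac2. Arap3, Arhgap33 and Arhgap30 are GTPase-activating proteins, which switch small GTPases off. Was, which drives actin branching, and Rac2 are best known from blood cells. Arap3 stood at -7.80 and -7.94 in P0 and -4.33, -3.87, -4.20, -3.74 and -4.07 in KPT P6 (adjusted p = 2.80e-09), with every KPT P6 sample above both P0 samples. For these genes, leaving out P0 replicate 1 gave 7 higher and 0 lower, leaving out P0 replicate 2 gave 6 and 0, and the repeat arrays 11 and 0.

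Extracellular proteases were led by Mmp2, a gelatinase, at -4.80 and -4.43 in P0 and -1.86, -1.48, -1.56, -2.25 and -1.93 in KPT P6, a change of 2.79 ± 0.57 (SE, adjusted p = 0.00489). The urokinase Plau and its receptor Plaur rose together, Plau by 2.37 ± 0.36 (SE, adjusted p = 0.000364) and Plaur by 1.76 ± 0.28 (SE, adjusted p = 0.000467). Of 27 genes in this list these 3 were called (11.1%), and none was lower, with 6 of the 27 passing the filter only through KPT P6. Plaur stood at -2.97 and -2.43 in P0 and -1.06, -0.87, -0.94, -0.94 and -0.89 in KPT P6, with the 5 lines close together and apart from P0. Here leaving out P0 replicate 1 gave 0 higher and 0 lower, leaving out P0 replicate 2 gave 2 and 0, and the repeat arrays 8 and 0.

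Secreted signals and their receptors came next. Of 34 chemokines and cytokines tested, 6 rose and 1 fell (20.6% called, beside 4.68% of all genes), with a median of 0.80. Of the 34, 10 passed the filter only through KPT P6. In this list, leaving out P0 replicate 1 gave 4 higher and 0 lower, leaving out P0 replicate 2 gave 5 and 0, and the repeat arrays 9 and 2. Tnfsf13b, the B-cell survival factor BAFF, stood at -8.42 and -8.03 in P0 and -3.01, -2.86, -2.86, -2.85 and -2.86 in KPT P6, at least 8.37-fold higher (adjusted p = 5.78e-12). Ccr7, the lymph-node homing receptor, was at least 12.9-fold higher (adjusted p = 1.67e-05). Ccl8, a monocyte chemokine, rose from -4.91 and -4.71 to -1.52, -1.65, -1.57, -1.91 and -2.18 by 3.04 ± 0.46 (SE, adjusted p = 0.000360). Il18 and the macrophage growth factor Csf1 were the other 2 higher members. Cxcl3, a neutrophil chemokine, fell from -1.31 and -1.5 to -3.57, -3.88, -4.02, -3.24 and -3.13, a change of -2.17 ± 0.44 (SE, adjusted p = 0.00434).

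In the BMP and TGF-beta list 3 of 39 genes rose (7.69%, near the 4.68% of all genes) and none fell, with a median of 0.46, and 10 of the 39 passed the filter only through KPT P6. Of its genes, leaving out either P0 sample gave 2 higher and 0 lower, and the repeat arrays 10 and 0. Bmp7, a ligand of kidney development, stood at -7.37 and -8.03 in P0 and -4.52, -4.23, -4.35, -4.57 and -4.46 in KPT P6, at least 2.89-fold higher (adjusted p = 1.14e-05), and Bmp4 was at least 2.23-fold higher (adjusted p = 1.58e-05). Inhba, the activin A subunit, was bright in both groups and rose by 1.75 ± 0.30 (SE, adjusted p = 0.00112). Among growth factors and receptor kinases 3 of 25 rose (12%), namely Pdgfrb, Igfbp4, which binds insulin-like growth factors (at least 2.92-fold, adjusted p = 9.31e-05), and the EGF receptor ligand Hbegf, by 1.55 ± 0.29 (SE, adjusted p = 0.00256). Boc, a co-receptor for hedgehog ligands, was the 1 called gene of 5 tested in that pathway (20%, beside 4.68% of all genes). It was at least 1.46-fold higher (adjusted p = 1.37e-05). The median of the 5 was -0.41, and 2 of them passed the filter only through KPT P6.

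Of 15 transporters of the ABC family tested, 3 were higher and 1 lower (26.7%), and 5 passed the filter only through KPT P6. For these genes, leaving out P0 replicate 1 gave 2 higher and 0 lower, leaving out P0 replicate 2 gave 3 and 1, and the repeat arrays 3 and 1. The neighbours Abcb1a, Abcb4 and Abcb1b, whose promoters are shown above, were at least 3.23-fold, at least 2.68-fold and at least 1.25-fold higher (adjusted p = 3.47e-07, 6.88e-06 and 0.000577). Abcb1a stood at -8.12 and -7.80 in P0 and -4.64, -4.13, -4.35, -4.20 and -3.98 in KPT P6. No P0 array of either set passed background for these 3 genes. Under a floor on dim signals Abcb1b turned its sign, and on the repeat arrays its bound was at least 3.05-fold. The transcripts are related in sequence, and whether their probes share signal was not tested. Abca1, which exports cholesterol, went the other way, from -4.57 and -4.80 to below background in all 5 lines, at least 3.9-fold lower (adjusted p = 0.000296).

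The falls were fewer. Of 37 sterol and lipid synthesis genes tested, 3 fell (8.11%, beside 0.567% of all genes lower) and none rose, with a median of -0.47. Here leaving out either P0 sample gave 0 higher and 1 lower, and the repeat arrays 0 and 3. Gpd1, which makes glycerol-3-phosphate, stood at -0.34 and -0.65 in P0 and -3.21, -3.07, -3.09, -2.47 and -2.88 in KPT P6, a change of -2.46 ± 0.28 (SE, adjusted p = 1.98e-05). Acacb, the mitochondrial acetyl-CoA carboxylase, changed by -2.22 ± 0.46 (SE, adjusted p = 0.00489). Nr1h3, the sterol-sensing receptor LXR alpha, for which Abca1 is a known target, stood at -1.39 and -1.55 in P0 and -2.39, -2.60, -2.61, -2.24 and -2.48 in KPT P6, a change of -1.0 ± 0.22 (SE, adjusted p = 0.00752). On the repeat arrays Abca1, Gpd1, Acacb and Nr1h3 were lower again and each passed the threshold.

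C3, the central complement protein, stood at 0.99 and 0.90 in P0 and -1.55, -1.30, -1.47, -1.5 and -1.66 in KPT P6, a 5.43-fold fall (adjusted p = 0.000190). Selenop, a selenium transport protein, fell from 1.28 and 0.35 to -1.32, -1.57, -1.59, -2.06 and -1.97, by a change of -2.52 ± 0.37 (SE, adjusted p = 0.000218). Slc7a11, the cystine importer, was at least 2.0-fold lower (adjusted p = 0.000281), and below background in all KPT P6 samples. Dmrtc1c2, an X-linked gene of the Dmrt family, showed the largest fall, from -2.82 and -3.94 to -6.88, -7.18, -7.23, -7.07 and -7.28, at least 9.65-fold lower (adjusted p = 0.000707).

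Themis, a T-cell signalling gene, was at least 4.75-fold lower (adjusted p = 0.000218), and 4931408D14Rik at least 3.83-fold lower (adjusted p = 0.00117). The remaining large falls were measured in both groups, although Unc93a2 passed background in 1 of the 5 KPT P6 samples only. Unc93a changed by -2.64 ± 0.51 (SE, adjusted p = 0.00300) and its relative Unc93a2 by -2.36 ± 0.29 (SE, adjusted p = 4.33e-05). P2rx3, an ATP-gated channel of sensory neurons, changed by -2.56 ± 0.31 (SE, adjusted p = 3.52e-05), and the acetyltransferase Nat8, a gene of kidney and liver, by -2.53 ± 0.33 (SE, adjusted p = 8.52e-05). Nat8 was the 1 called member of 24 detoxification enzymes tested (4.17%, near the 4.68% of all genes), and the list median was -0.39.

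Of 46 cell cycle genes tested, 1 rose and 2 fell (6.52%, near the 4.68% of all genes), and the list median was -0.11. Ccnd1, cyclin D1, rose 5.19-fold, from -4.48 and -3.20 to -1.89, -1.57, -1.54, -1.27 and -1.06, a change of 2.38 ± 0.34 (SE, adjusted p = 0.000191). E2f2, a cell cycle transcription factor, fell from 0.46 and 0.62 to -1.48, -1.18, -1.54, -1.25 and -0.97, a change of -1.82 ± 0.35 (SE, adjusted p = 0.00323), and the CDK inhibitor Cdkn2c changed by -1.47 ± 0.25 (SE, adjusted p = 0.000855). In this list, leaving out P0 replicate 1 gave 0 higher and 0 lower, leaving out P0 replicate 2 gave 1 and 1, and the repeat arrays 1 and 2. Mki67, the proliferation marker Ki-67, stood at -0.05 and 0.42 in P0 and -0.60, -0.13, 0.23, 0.59 and 0.42 in KPT P6, so the groups overlapped with a change of -0.08 ± 0.36 (SE, adjusted p = 0.942). Myc overlapped as well, at -2.05 and -1.67 in P0 and -2.01, -1.51, -1.66, -1.17 and -1.38 in KPT P6 with a change of 0.32 ± 0.27 (SE, adjusted p = 0.598).

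Of 34 hypoxia and glycolysis genes tested, 2 rose and 1 fell (8.82%, beside 4.68% of all genes), and the median was -0.10. Car9, a carbonic anhydrase, stood at -6.91 and -7.65 in P0 and -4.15, -3.64, -3.28, -4.52 and -4.59 in KPT P6, at least 3.78-fold higher (adjusted p = 8.01e-05). Pfkfb4, a regulator of glycolysis, rose by 1.83 ± 0.29 (SE, adjusted p = 0.000619). Ddit4, a brake on mTOR signalling, fell from 3.78 and 3.32 to 1.98, 2.03, 1.90, 1.85 and 1.60, a change of -1.68 ± 0.21 (SE, adjusted p = 3.46e-05). Of its genes, leaving out P0 replicate 1 gave 2 higher and 1 lower, leaving out P0 replicate 2 gave 1 and 1, and the repeat arrays 2 and 1.

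Among stress genes, Ddit3, the transcription factor CHOP, rose by 1.70 ± 0.24 (SE, adjusted p = 0.000191) and the co-chaperone Dnajc12 was at least 1.31-fold higher (adjusted p = 0.00345), although its sign turned with a floor on dim signals. Chac1, which degrades glutathione, fell from 0.88 and 1.06 to -0.33, 0.02, -0.16, -0.36 and -0.32, a change of -1.20 ± 0.23 (SE, adjusted p = 0.00257), and Atf5 changed by -0.70 ± 0.15 (SE, adjusted p = 0.00744), the latter not called on the repeat arrays (adjusted p = 0.0749). With 2 higher and 2 lower of 17 tested (23.5%), the list median was -0.04. For these genes, leaving out P0 replicate 1 gave 0 higher and 0 lower, leaving out P0 replicate 2 gave 1 and 0, and the repeat arrays 3 and 1. Of 21 immediate-early genes 3 rose (14.3%). Here leaving out P0 replicate 1 gave 0 higher and 0 lower, leaving out P0 replicate 2 gave 3 and 0, and the repeat arrays 5 and 0. The 3 were Dusp6, a phosphatase that restrains ERK, by 2.53 ± 0.46 (SE, adjusted p = 0.00178), and the transcription factors Fosb (at least 1.41-fold, adjusted p = 0.000475) and Fos. Fos differed widely between the P0 samples, at -5.73 and -2.70 in P0 and -1.66, -2.04, -1.72, -1.70 and -1.82 in KPT P6 (adjusted p = 0.00521), and on the repeat arrays, where P0 stood at -5.42 and -2.79, neither Fos nor Fosb was called (adjusted p = 0.0262 and 0.0696). The sign of Fosb turned with a floor on dim signals.

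Genes of the germline and early embryo had 4 higher and 1 lower of 14 tested (35.7%), of which 5 passed the filter only through KPT P6. In this list, leaving out P0 replicate 1 gave 3 higher and 0 lower, leaving out P0 replicate 2 gave 3 and 1, and the repeat arrays 5 and 1. Xlr4b and Xlr4a, whose promoters are shown above, stood at -6.99 and -7.47 in P0 and -3.09, -3.37, -2.95, -2.80 and -3.17 in KPT P6 for Xlr4b and -7.15 and -7.82 in P0 and -3.30, -3.77, -3.09, -3.37 and -3.26 in KPT P6 for Xlr4a, at least 7.36-fold and at least 6.05-fold higher (adjusted p = 3.18e-08 and 3.70e-08). Xlr3b, of the same family, rose 8.5-fold, a change of 3.09 ± 0.19 (SE, adjusted p = 1.16e-08), and Taf7l, a germ cell transcription factor subunit, by 1.39 ± 0.27 (SE, adjusted p = 0.00284). Members of the Xlr family are close copies of each other, so their probes may read more than 1 of them and the 3 values are not independent.

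No interferon-stimulated gene was called in limma among 37 tested, nor any of 18 antigen presentation genes, with 4 of each list at an unadjusted p under 0.05. The smallest p values belonged to Cmpk2, at -6.26 and -6.37 in P0 and -8.01, -8.18, -7.60, -6.88 and -7.95 in KPT P6, below background on all 7 arrays (adjusted p = 0.0840), and to the immunoproteasome subunit Psmb9, at -2.0 and -2.73 in P0 and -0.19, -0.28, -0.13, -0.62 and -1.02 in KPT P6 (adjusted p = 0.0305). On the repeat arrays both passed the threshold, Cmpk2 at least 2.58-fold lower (adjusted p = 0.00203) and Psmb9 higher with a change of 1.79. Those arrays called 2 interferon-stimulated genes and 1 antigen presentation gene. Of 6 imprinted genes tested none was called in limma (0 at an unadjusted p under 0.05, and 0 called on the repeat arrays), and the smallest p was that of Kcnq1ot1 (adjusted p = 0.533). Of 11 stem-like surface and factor genes 1 rose (9.09%, beside 4.68% of all genes), and 4 of the 11 passed the filter only through KPT P6. It was Nt5e (CD73, which makes adenosine), at least 2.57-fold higher (adjusted p = 2.35e-06). On the repeat arrays 3 of 9 tested were called higher, Cd44, Nt5e and Thy1, and 0 lower.

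**Figure D3:**
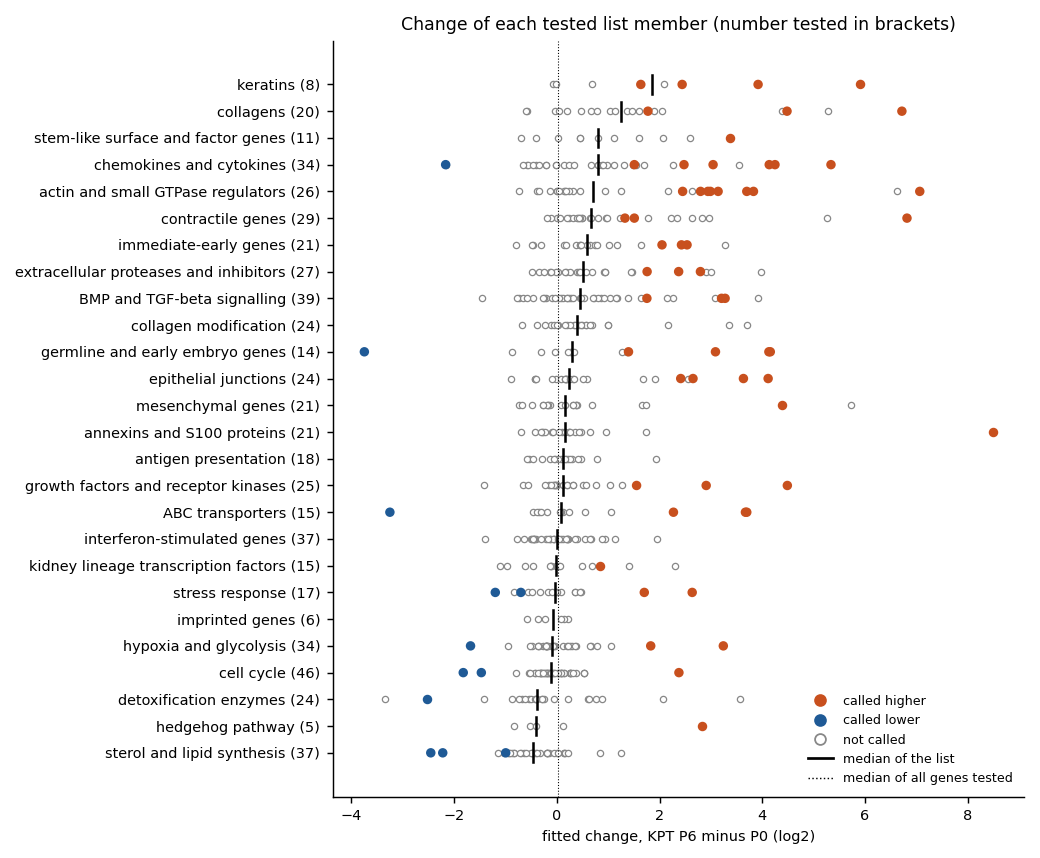
Fitted change from P0 to KPT P6 (log2) of every tested member of 26 gene lists, 1 point per gene, orange where called higher, blue where called lower and open where not called, with the median of each list as a bar. Keratins and collagens have the highest medians (1.86 and 1.25), sterol and lipid synthesis the lowest (-0.47), and the dotted line is the median of all genes tested (0.03).

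The study's own 14-gene KPT signature was chosen on these samples, so its direction is not independent evidence. All 14 were tested, 9 were called, all higher, and the median was 3.31. They were Mtmr7 (at least 9.28-fold), Col6a1, Il34, Arhgap33, Dyrk4, Tprg, Dnajc12, Padi3 and Plau. Of the 14, 10 passed the filter on dim probes only through KPT P6. Of its genes, leaving out P0 replicate 1 gave 5 higher and 0 lower, leaving out P0 replicate 2 gave 7 and 0, and the repeat arrays 13 and 0.

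Some large differences did not pass the threshold in the fit, which estimated the spread over P0 and P2 to P6 (19 arrays). There were 9 genes whose groups did not overlap, with a change over 4 on the log2 scale and no call, and all 9 were called on the repeat arrays. Those named were chosen after their values were seen, and include Fn1, Tmsb4x, Col1a1, Col1a2, Myl9, Ccn2, Mgp and Cyba. Fn1, fibronectin, stood at -8.29 and -7.60 in P0 and -3.27, -1.92, -2.03, -1.99 and -1.93 in KPT P6, at least 13.2-fold higher (adjusted p = 0.115, not called) and at least 37.5-fold higher on the repeat arrays (adjusted p = 9.77e-05). At P4 its 3 samples ran from -8.82 to 1.02. Tmsb4x, an actin-sequestering peptide, stood at -8.22 and -7.94 in P0 and -1.91, -1.42, -1.66, -1.19 and -1.15 in KPT P6, at least 22.4-fold higher (adjusted p = 0.0988, not called) and at least 55.0-fold higher on the repeat arrays (adjusted p = 6.46e-05), and its P4 samples ran from -8.84 to 1.60.

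Levels at the passages in between are given as description. Anxa8 was already at 1.64 at P1 (mean of 5) and 2.77 at P3 (mean of 2). Stbd1 had higher means at each passage up to P5, with means of -3.73, -2.34, -1.61, -1.27 and -0.30 from P1 to P5 and -0.67 at P6. Afp stood at -3.34 at P1 and 0.11 at P3. Lurap1l and Il34 had a higher mean at every passage, with Lurap1l at -5.39 at P1, -3.41 at P3 and -1.74 at P6, and Il34 at -3.03, -1.48 and -0.26.

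Acta2 stood at -0.13 at P1, with samples from -2.58 to 2.24, then -4.76 at P2 and -1.18 at P4. Ccnd1 had the same shape, at -1.24, -3.58 and -1.51. Bmp7 was near -6.20 at P2 and -6.30 at P3, and higher from P4 on. E2f2 had a lower mean from P1 on, at -0.62, and C3 was lowest at P5, at -3.49, below its P6 mean of -1.5. Abca1 was at -8.15 at P3 and at -6.13 at P5, so that its low P6 mean of -7.94 did not follow a steady decline.

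**Figure D4:**
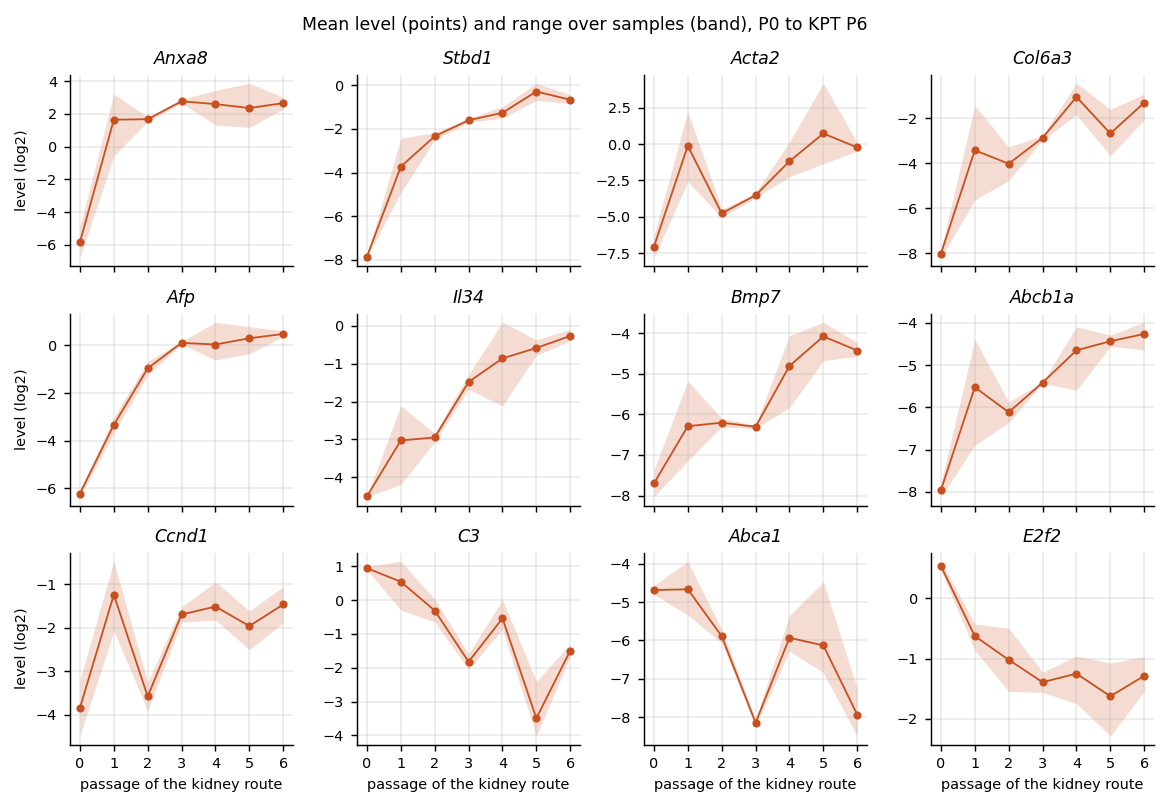
Mean level (log2, points) and the range over samples (band) of 12 genes in P0 and at passages 1 to 6 of the kidney route, with 2, 5, 2, 2, 3, 5 and 5 samples. Stbd1 and Afp rise early and stay high, Acta2 and Ccnd1 are high at P1 and low at P2, and Abca1 is lower at P3 and P6 than at P4 and P5.

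The 5 KPT P6 lines were close to each other. Over 14893 probes seen on all P0 and KPT P6 arrays of both sets, the median SD was 0.22 over the 5 lines and 0.16 over the 2 P0 samples, beside 0.15 between both arrays of 1 KPT P6 RNA. For replicates 1, 2 and 4 it was 0.23 on the first arrays, which lie on different slides, and 0.13 on the repeat arrays, which share a slide. The 6 genes with the widest range over the lines whose order held on the repeat arrays were Olfr175, Wfdc16, Ifnb1, Olfr790, Sfrp4 and Gad2. Each passed background on 1 array only, replicate 5 for Olfr175 and replicate 3 for the rest, neither of which was measured again. Sfrp4 also passed on 1 of the 3 repeat arrays. The order thus held among dim values.

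A wide range on the first arrays was not always seen again. Syt10, the gene with the widest range, was at -4.17 in replicate 4 and 1.12 to 1.96 in the other lines, but its repeat array gave 0.48 for the same RNA, next to 0.78 and 0.34 for replicates 1 and 2. Aldh1a1, a retinal dehydrogenase named after its values were seen, did keep its spread. Replicate 1 was at background on both arrays (-7.95 and -7.90), replicate 2 was higher on both (-5.15 and -5.03), and replicate 4 was between them (-6.44 and -7.23).

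The KPT P6 lines were set against the P6 lines of the other routes only where the genes above differ. T-LM P6 are 4 lines recovered from lung after tail-vein injection, measured on the first arrays, and K-LM P6 are 3 lines from lung metastases of kidney tumours, measured on the repeat slide and compared there. Of 20691 probes, 1866 differed between KPT P6 and T-LM P6 (9.02%), and of 21013 probes 2984 differed between KPT P6 and K-LM P6 (14.2%). The second count depended on single samples. It was 1509, 1543 and 1141 without KPT P6 replicates 1, 2 and 4, and 1217, 1580 and 2159 without K-LM P6 replicates 1, 2 and 3. Of the 28 named genes that differed from K-LM P6, 20 to 25 still passed in those fits, and each kept its sign. Bmp7 and Cdh16 were higher in KPT P6 than in both. For Bmp7 the difference from T-LM P6 was 1.61 ± 0.14 (SE, adjusted p = 6.10e-06) and from K-LM P6 3.36 ± 0.50 (SE, adjusted p = 0.00212). Bmp7 passed background in 1 of the 3 K-LM P6 samples, so the second difference is largely one from background. Cdh16 was below background in all T-LM P6 and K-LM P6 samples, and at least 4.59-fold and 5.09-fold higher in KPT P6 (adjusted p = 1.11e-06 and 0.000160).

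The ABC transporters were lower in KPT P6 than in T-LM P6, with differences of -2.76 ± 0.15 (SE, adjusted p = 2.28e-07) for Abcb1b, -2.01 ± 0.17 (SE, adjusted p = 4.36e-06) for Abcb4 and -1.49 ± 0.18 (SE, adjusted p = 7.47e-05) for Abcb1a. Xlr4a, Xlr4b and Xlr3b were higher in KPT P6 than in K-LM P6, with differences of 4.76 ± 0.52 (SE, adjusted p = 0.000586), 4.03 ± 0.43 (SE, adjusted p = 0.000517) and 1.98 ± 0.15 (SE, adjusted p = 0.000124), and Xlr4a passed background in 1 of the 3 K-LM P6 samples, as did Xlr4b. C3 and Cxcl3 were lower in KPT P6 than in either. Anxa8, Lcp1 and Tnfsf13b, by contrast, gave no call in either comparison, with differences for Anxa8 of -0.66 ± 0.30 (SE, adjusted p = 0.198) and -0.30 ± 0.24 (SE, adjusted p = 0.365).

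**Figure D5:**
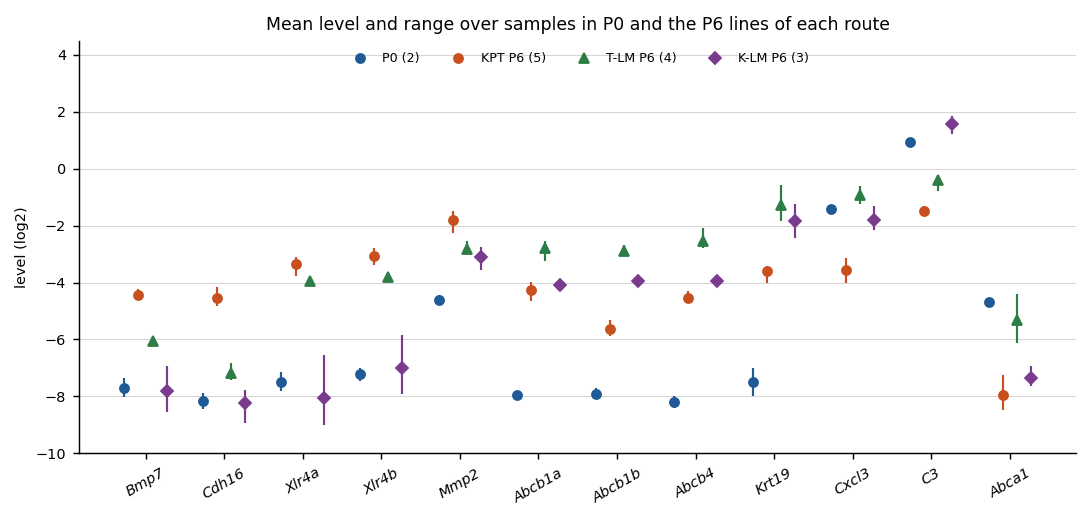
Mean level (log2, markers) and range over samples (lines) of 12 genes in P0, KPT P6, T-LM P6 and K-LM P6, the last measured on the repeat slide only and the others drawn from the first arrays. Bmp7 and Cdh16 are highest in KPT P6, Abcb1a, Abcb1b and Abcb4 are highest in T-LM P6, and Xlr4a and Xlr4b are lower in K-LM P6 than in KPT P6 and T-LM P6.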

How the data were processed

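Expression was measured on Agilent single-colour mouse arrays. The authors deposited, for each array, the scanner's processed signal intensity, the raw median signal and background intensity, and flags for probes well above background, with a table of log2 values for all arrays, used here as an alternative only. The processed intensity was divided by each array's 75th percentile over the 11289 probes well above background on all arrays and log2-transformed. Probes of 1 identity were averaged, and a gene was read by its brightest probe. Probes flagged well above background by fewer than 2 of the fitted arrays were not tested. limma 3.58.1 (R 4.3.3; lmFit and eBayes, Benjamini-Hochberg adjustment) was fitted to P0 and KPT P2 to P6 (19 arrays, 13 residual degrees of freedom), and separate fits compared KPT P6 with T-LM P6 and, on the repeat slide of 8 arrays, with K-LM P6. No probe of the named genes was saturated. Precision is limited by the number of arrays. Normexp, an alternative, was run on raw median signals with an offset of 50. Named genes were the 12 largest called rises and 12 largest called falls without overlap, up to 4 called each way per list (or the smallest p), 6 with the widest range over KPT P6, and 8 fixed genes. The genes and lists were chosen with earlier results of these data known. On simulated data for P0 to KPT P6 (20978 probes), 71.5% of 200 changed probes and 3 unchanged ones were called. The planted changes were at most 2 on the log2 scale and the noise was independent and normal. It had no array background and no dimmer P0 arrays, so these figures do not cover genes that start near background. Promoters are from RefSeq (GRCm38.p6). Of the 9 genes with a large uncalled change, 1 is not reported here.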

Additional observations from a re-analysis of the deposited data

Results flagged for a closer look

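In 13 of 95 named genes 1 of the 5 KPT P6 samples lay far from the other lines. Chance alone sets such a sample apart in about 1 of 20 groups, but Olfr175, Wfdc16, Olfr790 and Gad2 were named for their wide range over these lines, so that rate does not apply to them, and no excess over chance is read from the 13. The samples that stood below the rest were Unc93a2 in replicate 4, -7.22 against -6.66 in the nearest sample (-6.87 on its repeat array), Krt19 in replicate 1, -4.01 against -3.51 in the nearest sample (-4.26 on its repeat array), Inhba in replicate 1, -0.42 against 0.024 in the nearest sample (-0.43 on its repeat array), Hbegf in replicate 1, -3.06 against -2.59 in the nearest sample (-2.63 on its repeat array), and Tnfsf13b in replicate 1, -3.01 against -2.86 in the nearest sample (-2.82 on its repeat array). Those that stood above were Esrp1 in replicate 1, -2.89 against -3.14 in the nearest sample (-3.49 on its repeat array), Krt23 in replicate 2, -5.94 against -6.52 in the nearest sample (-6.19 on its repeat array), Irx3 in replicate 4, -4.29 against -4.74 in the nearest sample (-4.58 on its repeat array), and Taf7l in replicate 1, 0.047 against -0.38 in the nearest sample (-0.62 on its repeat array). For Olfr175, Wfdc16, Olfr790 and Gad2, the sample that stood above was not run again, namely Olfr175 in replicate 5, -4.71 against -8.48 in the nearest sample, Wfdc16 in replicate 3, -5.00 against -8.36 in the nearest sample, Olfr790 in replicate 3, -5.60 against -8.46 in the nearest sample, and Gad2 in replicate 3, -5.58 against -8.51 in the nearest sample.

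For 22 of the 79 called genes the change from P0 differed between the kidney route and the tail-vein route at P6. Of all probes tested 9.02% differed, but the 79 were named for their changes on these same KPT P6 arrays. No excess is therefore read from the 22. The fitted differences, KPT P6 minus T-LM P6 on the log2 scale, were above 0 for Cdh16 (2.65), Bmp7 (1.61), Themis (1.39), Mmp2 (1.00), 4930550L24Rik (0.99), Lurap1l (0.79) and Xlr4b (0.71), and below 0 for Abcb1b (-2.76), Dhrs3 (-2.73), Cxcl3 (-2.67), Abca1 (-2.63), Krt19 (-2.30), Cryaa (-2.14), Bmp4 (-2.07), Abcb4 (-2.01), Abcb1a (-1.49), Krt17 (-1.28), Pfkfb4 (-1.16), C3 (-1.11), Nt5e (-0.99), Ddit4 (-0.78) and Stbd1 (-0.67).

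Against K-LM P6 on the repeat slide 28 of the 79 differed, beside 14.2% of all probes. The KPT P6 RNA there is that of the first arrays, so no excess is read here either. Of the 28, 20 to 25 still differed when 1 sample was left out and 11 with the replicate number as a block. KPT P6 minus K-LM P6 was above 0 for Xlr4a (4.76), Xlr4b (4.03), Cdh16 (3.54), Bmp7 (3.36), Xlr3b (1.98), Themis (1.82), Boc (1.61), Mmp2 (1.57), Igfbp4 (1.46), Plau (1.16), Lurap1l (1.05), Esrp1 (0.98) and Inhba (0.95), and below 0 for C3 (-3.10), Krt20 (-2.61), Krt19 (-2.11), Cldn1 (-1.86), Dmrtc1c2 (-1.80), Abcb1b (-1.78), Selenop (-1.68), Cxcl3 (-1.57), Krt17 (-1.55), Ccl8 (-1.52), Ddit4 (-1.24), Abca1 (-1.16), 4930550L24Rik (-1.11), Acacb (-0.98) and Abcb4 (-0.84). Krt19, Krt17, C3, Cxcl3, Ddit4, Abcb4 and Abcb1b were lower, and Cdh16, Bmp7, Mmp2, Lurap1l and Xlr4b higher, in KPT P6 than in both other routes. 4930550L24Rik was higher than in T-LM P6 and lower than in K-LM P6. Where 1 group was below background on every array, the fitted difference above is no measured fold and only a bound holds: Cdh16 was at least 4.59-fold higher than in T-LM P6 and 5.09-fold higher than in K-LM P6, Abca1 at least 2.53-fold lower than in T-LM P6, and Themis at least 1.16-fold higher than in K-LM P6. For Abca1 against K-LM P6 and Themis against T-LM P6 both groups were below background on every array, so no fold or direction is read from these calls. Bmp7, Boc, Xlr4a and Xlr4b passed background in 1 of the 3 K-LM P6 samples.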

How the results depend on the processing

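Against 813 probes called from P0 to KPT P6, 532 were called with normexp background correction (412 higher, 120 lower), 254 with a filter on every array of the fit (196 higher, 58 lower), 395 with a floor on dim probes, 1364 with P0 and KPT P6 arrays only, 1746 on the repeat arrays alone (1359 higher, 387 lower) and 1287 with first and repeat arrays together. Leaving out 1 sample gave 383 to 712, lowest without P0 replicate 1, and 437 without P0 replicate 2. Against 401 probes with a change of 2 or more, 194 were called with normexp, 265 with the deposited log2 values, 80 with the filter on every array, 157 with the floor and 658 on the repeat arrays, and leaving out 1 sample gave 298 to 389. Between KPT P6 and T-LM P6, 1866 fell to 545 with the filter on every array, and leaving out 1 sample gave 1431 to 1707. Between KPT P6 and K-LM P6, 2984 became 1135 without a filter, and leaving out 1 sample gave 1141 to 2159. With the floor on dim probes the change turned to -0.067 for Cldn1, -0.18 for Grhl2, -0.67 for Krt23, -0.20 for Abcb1b, -0.041 for Fosb, -0.15 for Dnajc12 and -0.57 for Sfrp4. Of the 79 called genes, 53 kept their call with the floor, 6 turned their sign and 20 kept their direction but missed the threshold. Those 20 were Abca1, Slc7a11, Col6a1, Arhgap33, Cdh16, Itgb3, Cnn2, Arhgap30, Irx3, Bmp7, Bmp4, Boc, Pdgfrb, Igfbp4, Car9, Abcb1a, Abcb4, Nr1h3, Nt5e and Atf5. The uncalled change of Mki67 ran from -0.32 to 0.15 when 1 sample was left out, above 0 without P0 replicate 2 (0.15) and without KPT P6 replicate 1 (0.091). That of Vim ran from -0.014 (without P0 replicate 1) to 0.18, and was -0.042 with the percentile over all probes. The percentile over all probes moved the median change of all probes from -0.01 to -0.14, normexp to -0.10 and the floor to -0.15. The causes were not tested. The counts of gene lists on the repeat arrays and without each P0 sample were added after seeing the data.

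The samples share a replicate number only. Same-numbered P0 and KPT P6 samples deviated with correlations of -0.20 and -0.10, KPT P6 and T-LM P6 with -0.50 to 0.42, and KPT P6 and K-LM P6 with 0.29 and 0.20. With the replicate number as a block 711 probes were called from P0 to KPT P6, 1279 between KPT P6 and T-LM P6, and 433 between KPT P6 and K-LM P6. Of the 79 called genes, Cldn1, Krt23, Irx3, Cxcl3, Fos, Chac1, Atf5 and Taf7l then missed the threshold, and each kept its direction. Signal over background limits the low end: 27.9% to 35% of probes were well above it, so a gene below it in P0 has a bound and no fold.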

Other observations

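Where a named called gene had another tested probe, 13 such probes moved in the same direction and 10 of them were called as well. The 3 exceptions were second probes of Cnn2 (change 0.93, limma adjusted p = 0.0769), Esrp1 (1.00, adjusted p = 0.189) and Nr1h3 (-0.86, adjusted p = 0.0392). Xlr4a had a second called probe with a change of 3.18, and Lcp1 one with 4.99. P4ha1, which was not called, had a second probe that moved the other way (-0.12, adjusted p = 0.840). Cdh1, below background in P0 and KPT P6, was well above it in all 4 T-LM P6 samples (-5.70 to -4.13) and in 2 of 5 KPT P1 samples.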
